A study of Mus musculus with 9 samples.

Results

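Fatty acid oxidation was followed through 36 listed genes of its mitochondrial and peroxisomal pathways in whole mouse kidney. The members were taken by name from the raw count table after its Ensembl identifiers had been matched to symbols. They are 36 of 55359 genes in that table, and 36 of 36 passed the filter on low counts, which left 17179 genes for testing. By known location 19 members are mitochondrial, 10 are peroxisomal, 2 (Eci2, Ech1) are found in both organelles and 2 (Acot1, Acot12) are cytosolic. The remaining 3 are the nuclear receptor Ppara, the pyruvate dehydrogenase kinase Pdk4 and the fatty acid translocase Cd36.

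Beta-oxidation shortens fatty acids by a repeating cycle of dehydrogenation, hydration, a second dehydrogenation and thiolysis. Mitochondria take up long-chain fatty acids through the carnitine shuttle and pass the electrons of the first step to the respiratory chain through the electron transfer flavoprotein, whereas peroxisomes shorten very long-chain, branched and dicarboxylic fatty acids with oxidases and bifunctional enzymes of their own. The proximal tubule of the kidney draws much of its energy from this pathway, and PPAR-alpha, encoded by Ppara, is a well-known activator of its genes.

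Messenger RNA was sequenced from 3 groups of 3 mouse kidney samples. Mice of the NCD vehicle group were fed, from 6 weeks of age, a control diet in which fat made up 11.32% of calories. Fat made up 49.0% of calories in the high-fat diet of the HFD-STZ vehicle group, begun at the same age, and this group was also given 2 intraperitoneal injections of streptozotocin, a beta-cell toxin, at 30 mg/kg on days 60 and 63, with fasting glucose measured on day 65. Mice of the HFD-STZ dehydrozingerone group had the same diet and toxin and then received dehydrozingerone, a phenolic compound of ginger, at 50 mg/kg by mouth for 2 weeks. The titles assign samples to groups, since the treatment field of the labels carries the compound's name for all 9 samples. The sources used here give neither strain nor sex nor the make-up of the vehicle. They also do not state that each sample is a separate animal, so p-values measure only the spread among these samples, which may be technical in part. Each group held libraries with and without Y-linked transcripts, and so RNA of more than 1 animal. The treated group is called dehydrozingerone from here on.

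Libraries held 15109595 to 47522079 counts, of which 39.2% to 60.4% fell on the mitochondrial genome and 19.1% to 26.2% on unprocessed pseudogenes. Nuclear coding counts were 4.59 to 8.49 M (NCD vehicle), 2.13 to 6.52 M (HFD-STZ vehicle) and 7.63 to 15.2 M (dehydrozingerone). HFD-STZ vehicle and dehydrozingerone libraries thus did not overlap in these counts. TMM scaling factors ran from 0.327 (HFD-STZ vehicle replicate 2) to 1.63 (NCD vehicle replicate 3). The part of this depth in the calls was not tested. HFD-STZ vehicle replicate 2 stood apart, with the highest mitochondrial share and the fewest genes detected, 19397 against 23027 to 26201 in the others. Transcripts of Y-linked genes were present in 4 of 9 libraries: NCD vehicle replicate 1, HFD-STZ vehicle replicates 2 and 3, and dehydrozingerone replicate 3. The labels date each library to a separate batch, and the dates run group by group, so that effects of batch and of group cannot be told apart. In whole tissue, fewer cells of a type and less RNA per cell cannot be told apart either, which holds for every value below. Summed markers of the early proximal tubule (segments S1 and S2) ranged from 1275 to 1900 CPM (counts scaled to library size) in NCD vehicle libraries, 1044 to 1657 in HFD-STZ vehicle libraries and 1238 to 1313 in dehydrozingerone libraries, so markers of this kidney segment were present in every library. Between HFD-STZ vehicle and NCD vehicle their median log2 difference was -0.57, against -0.00314 over all genes. Of these 10 markers, 7 had estimates below 0 and 3 above it, up to 1.47. Groups did not overlap for 4 with lower levels (6.56% of all genes) and 0 with higher levels (4.83% of all). With edgeR 1 was called lower (0.0291% of all genes), the amino acid transporter Slc6a19 (-1.73, adjusted p = 0.035), named after its value was seen. The part of this segment in the values of the members was not tested.

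The promoter stretches of the genes on which the results turn are shown first, since they include both subunits of the electron transfer flavoprotein, which moved in opposite directions. The 250 bases before the annotated start are from RefSeq (GRCm38.p6), which held a window for 32 of 36 members, and coordinates are of that build, not of the newer build named for the counts. Capitals mark 3 motifs searched on both strands: the nuclear receptor hexamer AGGTCA, the CCAAT box and the NRF1 site, which reads GCGCA, any base and GCGC. Cpt1a lies on the plus strand (chr19:3323051-3323300), Etfa on the minus strand (chr9:55512244-55512493), Etfb on the plus strand (chr7:43443822-43444071), Etfdh on the minus strand (chr3:79628768-79629017) and Ehhadh on the minus strand (chr16:21787835-21788084), and each is written 5′ to 3′ toward its gene.
Cpt1a: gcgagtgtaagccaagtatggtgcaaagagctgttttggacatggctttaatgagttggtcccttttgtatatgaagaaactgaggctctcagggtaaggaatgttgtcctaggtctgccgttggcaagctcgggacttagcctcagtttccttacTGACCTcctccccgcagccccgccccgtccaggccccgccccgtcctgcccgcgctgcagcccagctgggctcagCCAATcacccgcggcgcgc
Etfa: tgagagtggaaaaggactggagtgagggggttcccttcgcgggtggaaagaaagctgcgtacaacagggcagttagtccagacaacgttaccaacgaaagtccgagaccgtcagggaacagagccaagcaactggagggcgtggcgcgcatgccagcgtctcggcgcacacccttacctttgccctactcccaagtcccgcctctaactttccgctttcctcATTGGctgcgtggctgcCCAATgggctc
Etfb: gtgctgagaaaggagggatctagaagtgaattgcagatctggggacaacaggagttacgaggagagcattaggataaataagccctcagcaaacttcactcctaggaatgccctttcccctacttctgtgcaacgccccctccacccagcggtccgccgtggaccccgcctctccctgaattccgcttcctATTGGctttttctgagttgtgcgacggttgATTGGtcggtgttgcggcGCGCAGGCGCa
Etfdh: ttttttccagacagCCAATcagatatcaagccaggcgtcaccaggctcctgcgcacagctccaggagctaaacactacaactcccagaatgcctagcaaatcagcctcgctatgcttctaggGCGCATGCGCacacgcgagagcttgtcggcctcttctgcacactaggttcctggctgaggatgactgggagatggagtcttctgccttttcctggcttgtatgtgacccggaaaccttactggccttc
Ehhadh: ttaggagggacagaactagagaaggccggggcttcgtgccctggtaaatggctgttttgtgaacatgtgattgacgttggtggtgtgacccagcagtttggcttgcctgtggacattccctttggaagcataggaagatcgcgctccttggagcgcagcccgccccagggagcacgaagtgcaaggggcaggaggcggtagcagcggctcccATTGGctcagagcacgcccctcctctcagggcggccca

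All 5 stretches held a CCAAT box, at 19 bases before the start in Cpt1a, 28 and 11 in Etfa, 59 and 29 in Etfb, 236 in Etfdh and 38 in Ehhadh. Of these 5, only Cpt1a held the hexamer, 94 bases before the start, and only Etfb and Etfdh held the NRF1 site, at 11 and 128 bases. Among the 32 members with a window the CCAAT box was present in 15 (46.9%), against 37.5% of all 27025 genes with a window. The hexamer was present in 7 (21.9%) against 15.8%, and the NRF1 site in 3 (9.38%; Etfb, Etfdh and Ppara) against 4.23%. The hexamer repeated after any single base, the classical PPAR-alpha element, was in 0 of 32 windows and in 0.0407% of all. An exact match is so rare that this 0 cannot show whether members lack the element. Looser matches to it and sequence outside the windows are not covered by that count. These matches describe letters in a window only.

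Levels per kilobase of the longest coding transcript spread widely among the members. Averaged over 9 libraries, the highest were Acadl, the long-chain acyl-CoA dehydrogenase, at 73.3 CPM per kilobase, Scp2, the peroxisomal sterol carrier and thiolase, at 63.1, Acadm, the medium-chain acyl-CoA dehydrogenase, at 54.0, and Ech1, a dienoyl-CoA isomerase, at 52.0. The lowest were Pdk4 at 2.30, Acads, the short-chain acyl-CoA dehydrogenase, at 2.62, and Acot1, a cytosolic acyl-CoA thioesterase, at 3.34. Groups were compared on the counts with edgeR's quasi-likelihood test, fitted over all 9 libraries, and calls were made below an adjusted p of 0.05 (Benjamini-Hochberg over 17179 genes).

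**Figure D1:**
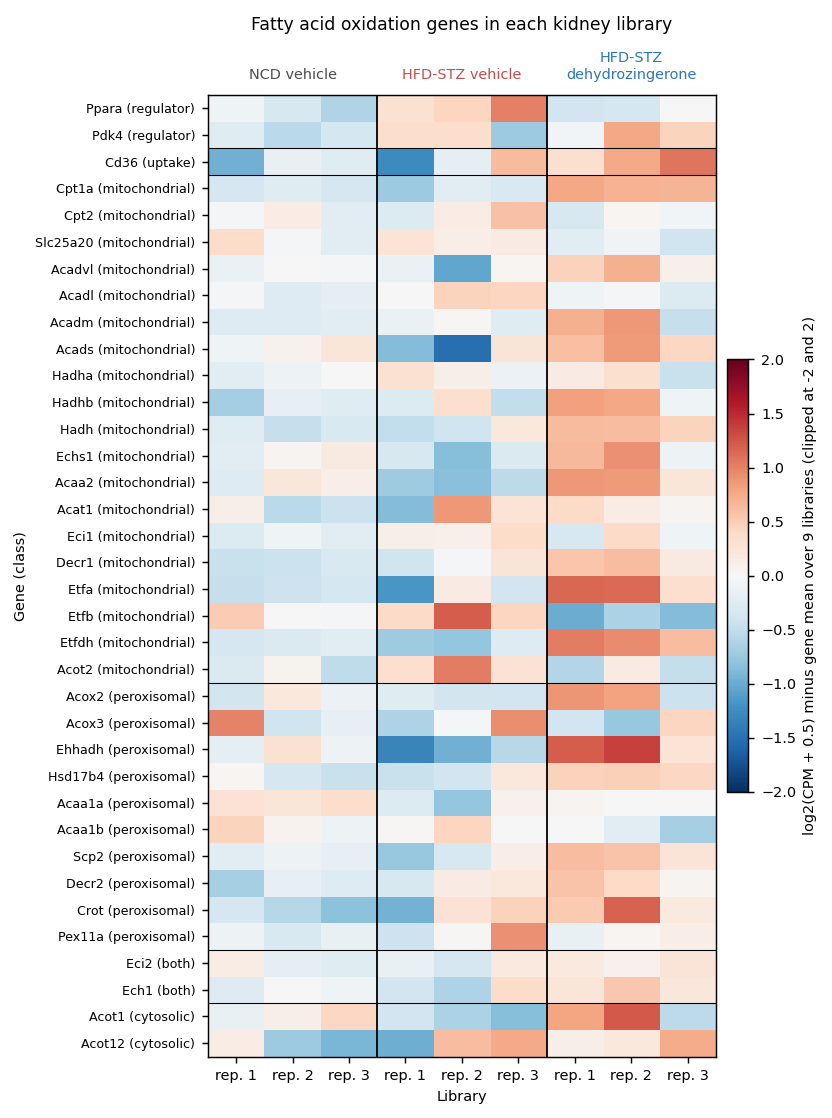
Level of each of 36 members (rows, ordered by class) in each of 9 libraries (columns), as log2(CPM + 0.5) minus the gene's mean over the libraries, with colours clipped at -2 and 2. Dehydrozingerone replicates 1 and 2 are above the mean for most rows and replicate 3 is paler. Some rows run the other way, among them Etfb, Ppara, Slc25a20 and Acadl.

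The first comparison asks what the diabetic model did to the pathway without the compound. With edgeR, 0 of 36 members were called in HFD-STZ vehicle against NCD vehicle kidneys, where 0.0524% of all genes tested were (0.0233% higher and 0.0291% lower). An unadjusted p under 0.05 was found for 5 members (7.43% of all genes). DESeq2 called 1 member, Ppara, higher, and limma-voom called 0, where they called 126 and 2 of all genes. A count of 0 calls does not show that no member differed. Without the filter on low counts edgeR called Ppara higher and Ehhadh lower, and 425 of 32021 genes in all. The median log2 difference was 0.15 over the 19 mitochondrial members and -0.01 over the 10 peroxisomal ones, against -0.00314 over all genes.

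The 5 members with the lowest unadjusted p had differences of at most 1.94-fold in either direction. Ppara measured 16.9, 14.4 and 11.8 CPM in NCD vehicle and 22.4, 24.5 and 36.6 in HFD-STZ vehicle libraries. Every HFD-STZ vehicle library was above every NCD vehicle library, with a log2 difference of 0.96 (SE 0.24, adjusted p = 0.29, edgeR). Ehhadh, the L-specific bifunctional enzyme of peroxisomes, measured 31.3, 44.6 and 33.6 CPM in NCD vehicle and 14.1, 18.2 and 24.4 in HFD-STZ vehicle libraries. Its groups did not overlap either, in the other direction, and the log2 difference was -0.95 (SE 0.31, adjusted p = 0.48, edgeR). The mitochondrial thiolase Acaa2 had -0.75 (adjusted p = 0.45), the mitochondrial thioesterase Acot2 0.82 (0.54) and the peroxisomal thiolase Acaa1a -0.58 (0.60) in the same edgeR fit. Groups did not overlap for 4 members with higher levels in the model (Eci1, Acadl, Acot2 and Ppara; 4.83% of all genes) and for 5 with lower levels (Acaa2, Echs1, Ehhadh, Acaa1a and Acot1; 6.56% of all genes).

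The second comparison asks what dehydrozingerone did in mice on the high-fat diet and streptozotocin. Cpt1a, Acaa2, Etfdh and Ehhadh were 2.18-fold to 3.91-fold higher than in HFD-STZ vehicle kidneys, and Etfb was 2.98-fold lower. In all, 12 of 36 members were called, where 22.1% of all genes were. Of these, 9 (25.0%) were called higher, where 10.0% of all genes tested were, and 3 (8.33%) were called lower, where 12.0% of all were. The median log2 difference over the 36 members was 0.50, against 0.04 over all genes. Groups did not overlap for 11 members with higher levels (20.9% of all genes) and 6 with lower levels (19.0% of all). Without HFD-STZ vehicle replicate 2, the library that stood apart, 6 members were called higher and 2 lower (3486 of all genes were called). The count was 4 higher and 1 lower without dehydrozingerone replicate 1, 4 and 2 without its replicate 2, and 13 and 2 without HFD-STZ vehicle replicate 3. Calls over all genes moved from 3796 to 1149, 1302 and 3366 in those 3 fits, so the fall without dehydrozingerone replicate 1 or 2 was not particular to the members. Of the members, 5 calls (Cpt1a, Acaa2, Etfb, Etfdh and Ehhadh) held in every fit that left a library out. With library size as the only scaling, which moved the median of all genes to 0.81, 8 members were called higher and 0 lower, and 93.7% of all called genes were higher against 45.5% with TMM.

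**Figure D2:**
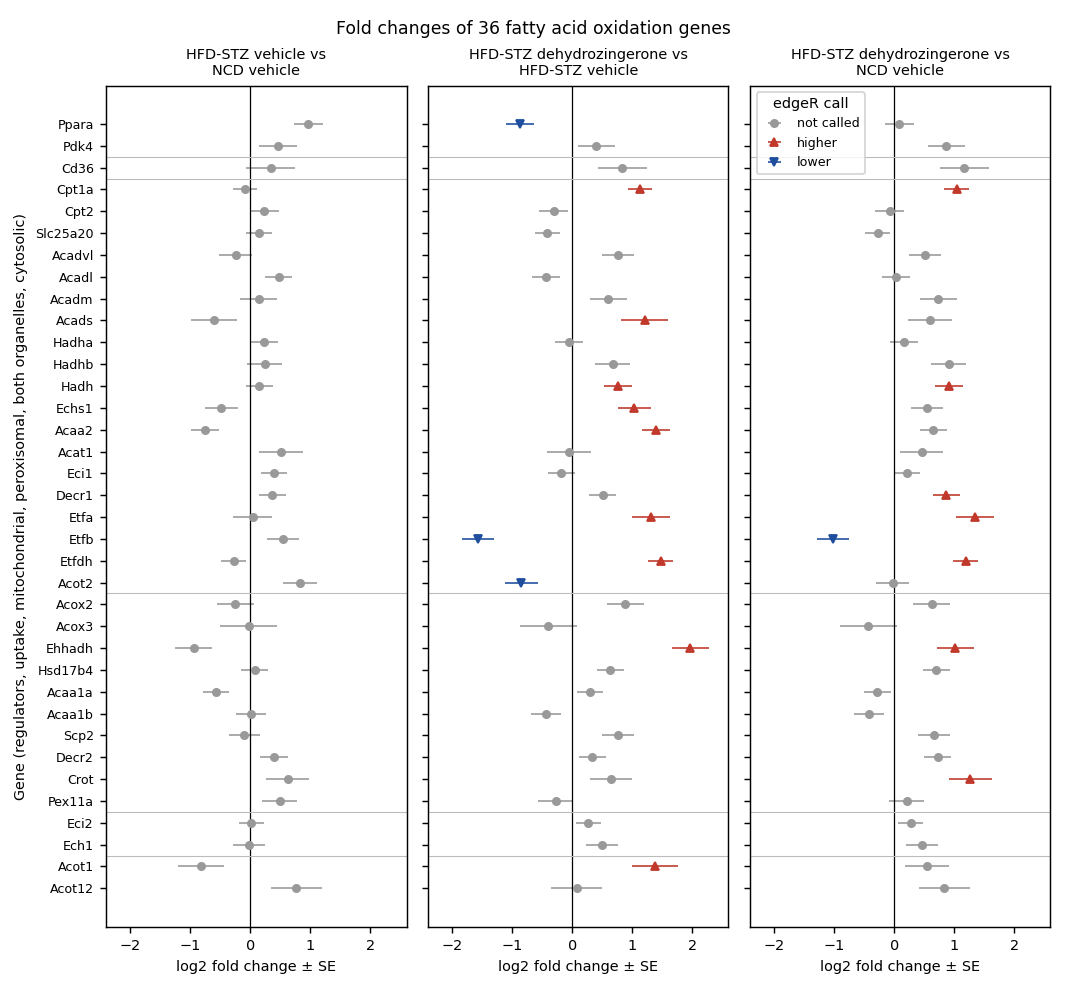
Log2 fold change (x axis; points with bars of 1 SE from edgeR, 9 libraries in the fit) of each of 36 members in the 3 comparisons, with triangles for members called at an adjusted p below 0.05. No point is a triangle in the model comparison, 9 point up and 3 down in the treatment comparison, and 7 point up and 1 down against NCD vehicle.

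Entry of fatty acids into mitochondria depends on the carnitine shuttle, and only its first enzyme was called. Cpt1a (ENSMUSG00000024900), the rate-limiting carnitine palmitoyltransferase of the outer membrane, measured 29.8, 31.9 and 29.7 CPM in NCD vehicle libraries, 22.7, 32.6 and 30.7 in HFD-STZ vehicle libraries, and 64.7, 61.5 and 61.1 in dehydrozingerone libraries. The 3 dehydrozingerone libraries lay close together and far above the other 6. The log2 difference from HFD-STZ vehicle was 1.13 (SE 0.20, adjusted p = 0.0058, edgeR). Cpt2, the inner-membrane transferase, had -0.31 (adjusted p = 0.37) and the carnitine-acylcarnitine carrier Slc25a20 had -0.42 (0.16) in the same test. The ratio of Cpt1a to Cpt2, per kilobase, was 0.630 ± 0.0631 in NCD vehicle libraries, 0.517 ± 0.0962 in HFD-STZ vehicle libraries and 1.37 ± 0.228 in dehydrozingerone libraries (SD, n = 3 each).

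The acyl-CoA dehydrogenases carry out the first step of each cycle for their own chain lengths, and 1 of 4 was called, with differences between the 4 not tested. Acads, the short-chain enzyme, measured 2.17, 1.21 and 5.34 CPM in HFD-STZ vehicle libraries and 6.94, 8.31 and 6.02 in dehydrozingerone libraries. It rose by 1.20 on the log2 scale (SE 0.39, adjusted p = 0.043, edgeR), with groups that did not overlap but with counts as low as 9 in one library. The call was lost in 11 of 18 alternative fits, including 8 of the 9 that left a library out (all but HFD-STZ vehicle replicate 3). Acadvl, the very long-chain enzyme, had a log2 difference of 0.76 (adjusted p = 0.064), Acadm 0.60 (0.17) and Acadl -0.44 (0.18) in the same fit. Acadm measured 172 and 192 CPM in dehydrozingerone replicates 1 and 2 but 75.9 in replicate 3, below all HFD-STZ vehicle libraries (95.7, 106 and 88.7).

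Among the later steps of the mitochondrial cycle, Acaa2, Echs1 and Hadh were called and the subunits of the trifunctional protein were not, a contrast that was not itself tested. Acaa2 (ENSMUSG00000036880), the medium-chain thiolase that releases acetyl-CoA, measured 14.9, 21.1 and 19.6 CPM in NCD vehicle libraries, 10.8, 9.85 and 12.2 in HFD-STZ vehicle libraries, and 33.1, 32.7 and 21.3 in dehydrozingerone libraries. All dehydrozingerone values were above all others and all HFD-STZ vehicle values were below all others. It rose against HFD-STZ vehicle by 1.40 on the log2 scale (SE 0.23, adjusted p = 0.0045, edgeR). Echs1, the short-chain enoyl-CoA hydratase, measured 14.4, 9.71 and 14.6 CPM in HFD-STZ vehicle libraries and 28.5, 34.3 and 16.7 in dehydrozingerone libraries, a rise of 1.03 (SE 0.27, adjusted p = 0.021, edgeR). Hadh, the short-chain hydroxyacyl-CoA dehydrogenase, measured 34, 36.7 and 56.1 CPM against 75, 74.1 and 65.9, a rise of 0.76 (SE 0.23, adjusted p = 0.034, edgeR). For both genes the groups did not overlap, but Echs1 lost its call in 5 of 18 alternative fits, among them those without HFD-STZ vehicle replicate 2 and dehydrozingerone replicate 1 or 2. Hadh lost it in 10, and kept it in only 2 of the 9 fits that left a library out (NCD vehicle replicate 1 and HFD-STZ vehicle replicate 3). Echs1 overlaps the exons of Paox on the opposite strand, and Paox had a log2 difference of 0.43 (adjusted p = 0.28, edgeR).

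Hadha and Hadhb encode the alpha and beta subunits of the trifunctional protein. Hadha had a log2 difference of -0.06 (adjusted p = 0.88) and Hadhb 0.67 (0.12) with edgeR. Eci1, an enoyl-CoA isomerase, had -0.19 (0.57), Decr1, a dienoyl-CoA reductase, 0.50 (0.13), and the acetoacetyl-CoA thiolase Acat1 -0.06 (0.93). Acot2, which hydrolyses acyl-CoA in the matrix, measured 35.6, 57.5 and 34.4 CPM in HFD-STZ vehicle libraries and 18.6, 31.8 and 20.0 in dehydrozingerone libraries. It fell by 0.85 on the log2 scale (SE 0.28, adjusted p = 0.048, edgeR), to levels that overlapped those of NCD vehicle libraries (22.9, 29.4 and 19.6). That call was lost in 9 alternative fits, and with library size as the only scaling the estimate was 0.07 (adjusted p = 0.94).

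The electron transfer flavoprotein takes electrons from the acyl-CoA dehydrogenases as a dimer of Etfa and Etfb, and Etfdh passes them on to ubiquinone. Etfa (ENSMUSG00000032314) measured 22.0, 22.8 and 24.0 CPM in NCD vehicle libraries, 13.3, 34.3 and 23.4 in HFD-STZ vehicle libraries, and 68.4, 67.5 and 38.8 in dehydrozingerone libraries. Etfdh (ENSMUSG00000027809) measured 9.52, 9.76 and 10.3, then 7.21, 6.88 and 10.1, then 25.1, 23.6 and 18.8 CPM in the same order of groups. Both were higher in every dehydrozingerone library than in any other library. Etfa rose by 1.31 on the log2 scale (SE 0.32, adjusted p = 0.016) and Etfdh by 1.47 (SE 0.21, adjusted p = 0.0031) against HFD-STZ vehicle with edgeR. Etfa lost its call without dehydrozingerone replicate 1 or 2. Etfdh shares exon sequence with 4930579G24Rik on the opposite strand, which had 0 to 19 counts in any library.

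Etfb (ENSMUSG00000004610) moved the other way from its partner subunit. It measured 48.6, 33.8 and 33.3 CPM in NCD vehicle libraries, 44.5, 79.4 and 45.7 in HFD-STZ vehicle libraries, and 16.8, 21.7 and 18.3 in dehydrozingerone libraries. The 3 dehydrozingerone values were below the other 6, and Etfb fell by 1.57 on the log2 scale (SE 0.27, adjusted p = 0.0051, edgeR). The Etfa to Etfb ratio, per kilobase, was 0.290, 0.433 and 0.463 in NCD vehicle libraries, 0.192, 0.277 and 0.328 in HFD-STZ vehicle libraries, and 2.62, 1.99 and 1.36 in dehydrozingerone libraries. A ratio within a library does not depend on scaling between libraries, and in this ratio the dehydrozingerone group lay above 1 and the other groups below 0.5. With library size as the only scaling Etfb had -0.63 (adjusted p = 0.45, edgeR), the single alternative of 18 in which its call was lost. In the GENCODE M21 annotation (GRCm38), 66.3% of the 75-base stretches of the Etfb transcript are shared with Gm45233, an overlapping gene on the same strand that is listed at 0 counts in every library, so how reads in that overlap were counted bears on the Etfb level.

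**Figure D3:**
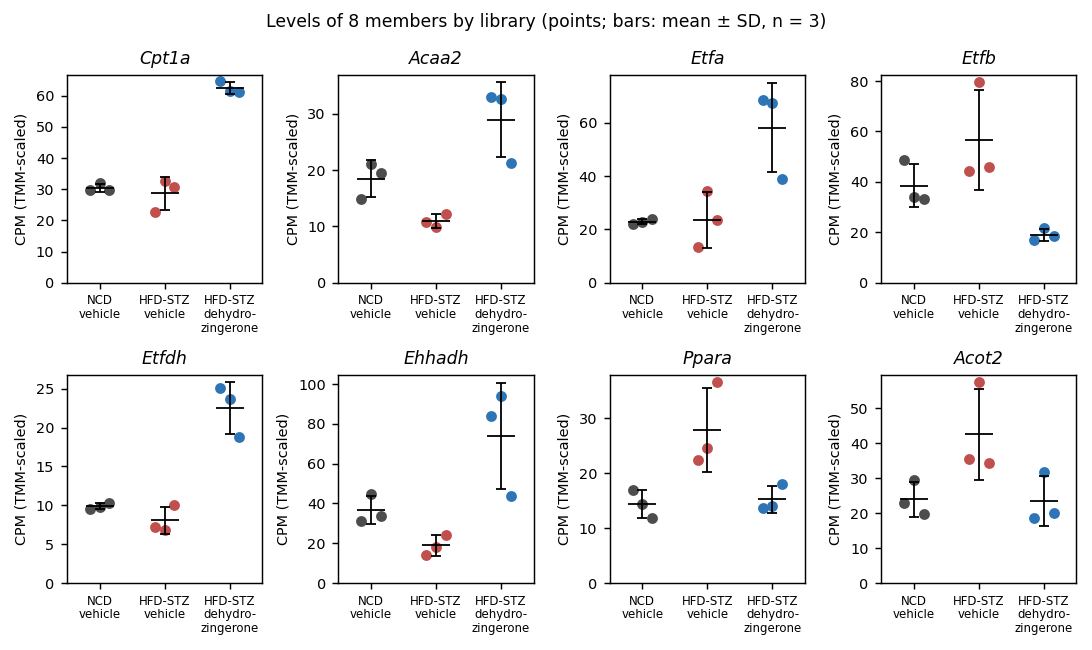
TMM-scaled CPM (y axis, from 0) of 8 members in each library of the 3 groups (x axis), with points for libraries and bars for mean ± SD (n = 3). Cpt1a, Acaa2, Etfa and Etfdh have their dehydrozingerone points highest, those of Ehhadh are above HFD-STZ vehicle, Etfb has them lowest, and Ppara and Acot2 are highest in HFD-STZ vehicle.

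Of the peroxisomal members, 1 of 10 was called, higher, the same share as the 10.0% of all genes called higher. Ehhadh (ENSMUSG00000022853) measured 83.9, 93.9 and 44.0 CPM in dehydrozingerone libraries against 14.1, 18.2 and 24.4 in HFD-STZ vehicle, and no values overlapped. It rose by 1.97 on the log2 scale (SE 0.31, adjusted p = 0.0039, edgeR), the highest estimate among the 36 members. Hsd17b4, the D-specific bifunctional enzyme, measured 19.2, 20.2 and 30.9 CPM in HFD-STZ vehicle libraries and 36.7, 37.2 and 35.4 in dehydrozingerone libraries. Its groups did not overlap, and its log2 difference was 0.63 (SE 0.23, adjusted p = 0.067, edgeR). The ratio of Ehhadh to Hsd17b4, per kilobase, was 1.51 ± 0.452 in NCD vehicle libraries, 0.727 ± 0.0767 in HFD-STZ vehicle libraries and 1.82 ± 0.613 in dehydrozingerone libraries (SD, n = 3 each).

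Scp2 measured 94.4, 128 and 175 CPM in HFD-STZ vehicle libraries and 245, 238 and 191 in dehydrozingerone libraries, with a log2 difference of 0.76 (adjusted p = 0.057, edgeR). The oxidases for branched chains had 0.88 (Acox2, adjusted p = 0.060) and -0.41 (Acox3, 0.56). The thiolases had 0.29 (Acaa1a, 0.36) and -0.44 (Acaa1b, 0.23), the reductase Decr2 0.33 (0.31), the carnitine octanoyltransferase Crot 0.65 (0.20) and the division factor Pex11a -0.28 (0.51). None of these 8 uncalled estimates says that the gene did not change. Acaa1a and Acaa1b share 27.3% and 37.8% of their 75-base stretches with other genes, mainly with each other, and Scp2 shares 36.7%, mainly with a pseudogene, so their levels are uncertain. Hadhb (57.2%, pseudogenes) and the neighbours Acot1 (26.4%) and Acot2 (21.2%) carry the same limit.

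Of the regulators and uptake genes, Ppara (ENSMUSG00000022383) measured 13.7, 14.0 and 18.0 CPM in dehydrozingerone libraries. These were all below the HFD-STZ vehicle values of 22.4, 24.5 and 36.6 and within or just above the NCD vehicle range. Ppara fell by 0.87 on the log2 scale against HFD-STZ vehicle (SE 0.24, adjusted p = 0.024, edgeR), while most of the called enzymes rose. The call was lost in 5 of 18 alternative fits, among them those without HFD-STZ vehicle replicate 3 and without dehydrozingerone replicate 1 or 2. Cd36 had a log2 difference of 0.83 (adjusted p = 0.16) and Pdk4 0.40 (0.38). Acot1 measured 12.0, 16.4 and 4.57 CPM against 5.10, 4.18 and 3.53 and was called higher (1.37, SE 0.39, adjusted p = 0.027, edgeR), although its replicate 3 lay within the HFD-STZ vehicle range. The Acot1 call was lost in 7 alternative fits, among them those without HFD-STZ vehicle replicate 2 or 3 and dehydrozingerone replicate 1 or 2. Acot12 had 0.07 (0.92), Eci2 0.26 (0.38) and Ech1 0.49 (0.20).

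Replicate 3 of the dehydrozingerone group, the one with Y-linked transcripts, held the group's lowest level for 24 of 36 members and for 9 of the 9 called higher. The share over all genes was not taken. The same library had the group's lowest sum of thick limb markers, 1054 CPM against 2163 and 2262. Its early proximal tubule sum was the highest, 1313 against 1238 and 1250. The part of these traits in its levels was not tested. With a term for Y-linked libraries in the edgeR fit, 9 members were called higher and 2 lower, and 3660 of all genes were called against 3796 without it. Acads and Acot2 lost their calls under that term and Hsd17b4 gained one.

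Mitochondrial and peroxisomal members were then set side by side, with no test between the classes. In the treatment comparison 7 of 19 mitochondrial members (36.8%) were called higher and 2 (10.5%) lower, and 1 of 10 peroxisomal members (10.0%) was called higher and 0 lower (4 of 10 at an unadjusted p under 0.05, which 37.1% of all genes had). Over all genes 10.0% were called higher and 12.0% lower, so the peroxisomal share of higher calls and the mitochondrial share of lower calls were near the background. The medians were 0.60 and 0.48 on the log2 scale, and estimates ran from -1.57 to 1.47 among mitochondrial and from -0.44 to 1.97 among peroxisomal members. The difference of the medians, peroxisomal minus mitochondrial, was -0.12. It became 0.15 without HFD-STZ vehicle replicate 3 and -0.28 without HFD-STZ vehicle replicate 1, so the order of the medians changed when 1 library was left out.

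Class means were also taken in each library. The mean over mitochondrial members of log2 CPM, relative to each gene's mean over 9 libraries, was -0.18, -0.14 and -0.17 in NCD vehicle libraries, -0.31, -0.07 and 0.04 in HFD-STZ vehicle libraries, and 0.34, 0.50 and -0.01 in dehydrozingerone libraries. The peroxisomal mean was -0.01, -0.11 and -0.20, then -0.54, -0.19 and 0.21, then 0.38, 0.40 and 0.07 in the same order of groups. In both classes dehydrozingerone replicates 1 and 2 were the highest of the 9 libraries and replicate 3 overlapped HFD-STZ vehicle. Peroxisomal minus mitochondrial means averaged 0.06 ± 0.10 in NCD vehicle libraries, -0.06 ± 0.21 in HFD-STZ vehicle libraries and 0.01 ± 0.10 in dehydrozingerone libraries (SD, n = 3 each), differences smaller than the spread between libraries.

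**Figure D4:**
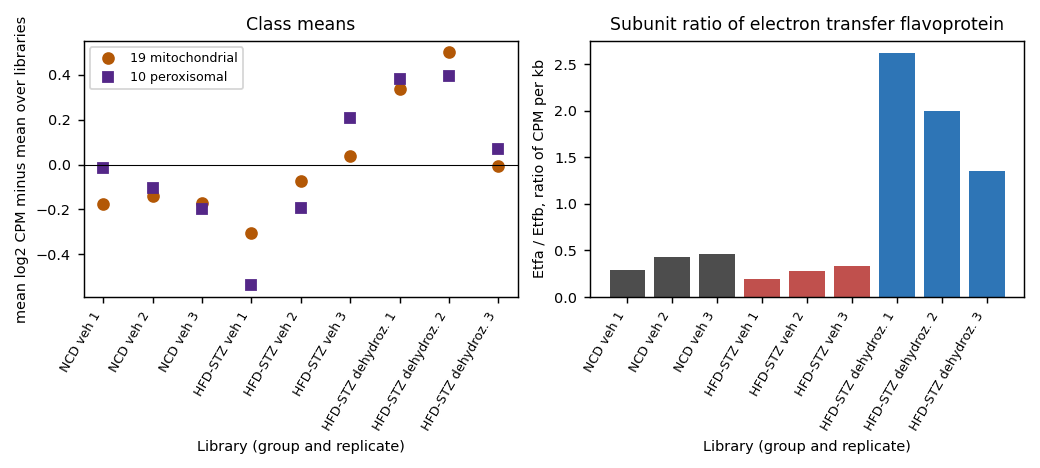
Left, mean log2 CPM of the 19 mitochondrial (circles) and 10 peroxisomal (squares) members relative to the mean over libraries, by library. Right, Etfa to Etfb ratio of CPM per kilobase by library (bars from 0): the dehydrozingerone bars reach 1.36 to 2.62 and the other 6 stay between 0.192 and 0.463.

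The third comparison sets treated kidneys against NCD vehicle and shares its treated libraries with the second. Here 8 of 36 members were called, where 13.7% of all genes were. Of these, 7 (19.4%) were called higher, where 6.31% of all genes were, and 1 (2.78%) was called lower, where 7.38% were. Groups did not overlap for 16 members with higher levels (22.4% of all genes) and 2 with lower levels (21.7% of all). The higher ones were Etfdh (log2 difference 1.19, adjusted p = 0.0097), Cpt1a (1.04, 0.012), Etfa (1.34, 0.022), Hadh (0.91, 0.026), Decr1 (0.87, 0.029), Crot (1.27, 0.037) and Ehhadh (1.02, 0.044), and the lower one was Etfb (-1.02, 0.029), all with edgeR. Crot, which prepares shortened acyl groups for export from peroxisomes, measured 33.5, 28.4 and 23.7 CPM in NCD vehicle and 61.0, 96.5 and 48.3 in dehydrozingerone libraries. Decr1 measured 36.8, 37.5 and 40.6 against 74.3, 77.9 and 57.5 CPM. For both genes the treated libraries were all higher.

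By class, 5 of 19 mitochondrial members were higher and 1 lower, and 2 of 10 peroxisomal members were higher and 0 lower (5 of 10 at an unadjusted p under 0.05, which 31.7% of all genes had), where 6.31% of all genes were higher and 7.38% lower. The medians were 0.54 and 0.64. Ppara had 0.08 (adjusted p = 0.84) and Acot2 -0.03 (0.96) against NCD vehicle. Ehhadh was called although its lowest treated value, 44.0 CPM, lay just under the highest NCD vehicle value, 44.6. The count of members higher in this comparison was 0 without dehydrozingerone replicate 1, 1 without its replicate 2, 12 without its replicate 3, and 1, 2 and 3 without NCD vehicle replicates 1, 2 and 3. Calls over all genes moved as well, from 2352 to 112, 245 and 1627 without the dehydrozingerone libraries in turn and to 259, 779 and 1675 without the NCD vehicle ones. The lower call of Etfb was lost without any 1 of the dehydrozingerone libraries or NCD vehicle replicate 1 or 2, and with library size as the only scaling 0 members were called.

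Other genes of the pathway, in 7 lists, were followed in the same fits, with 105 of 110 listed genes tested. Between HFD-STZ vehicle and NCD vehicle, edgeR called 0 of 105, against 0.0524% of all genes. It gave an unadjusted p under 0.05 for 10, against 7.43% of all genes. Of the 105, limma-voom called 0 and DESeq2 1, the pantetheinase Vnn1 (log2 difference 1.21, adjusted p = 0.14 with edgeR). With dehydrozingerone, 13 were called higher and 5 lower than in HFD-STZ vehicle with edgeR, 18 of 105 where 22.1% of all genes were called (10.0% higher and 12.0% lower). Among 18 genes of fatty acid uptake and activation 4 were higher and 1 lower, the higher ones being the acyl-CoA synthetases Acsl4 (1.54, adjusted p = 0.0031), Acss1 (1.45, 0.0082) and Acsl5 (1.26, 0.014) and the binding protein Fabp3 (1.63, 0.015). The lower one, named after its value was seen, was the medium-chain synthetase Acsm5 (-0.97, 0.048). Acsl4 averaged 6.39 ± 0.459 CPM in NCD vehicle libraries, 6.39 ± 0.868 in HFD-STZ vehicle libraries and 18.8 ± 4.80 in dehydrozingerone libraries (SD, n = 3 each).

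With treatment, 10.0% of all genes were called higher and 12.0% lower with edgeR. Of 15 other mitochondrial acyl-CoA enzymes tested, 3 were higher, namely Acot9 (1.31, adjusted p = 0.012), Acad11 (0.84, 0.022) and Acad9 (0.77, 0.046). In that list 1 was lower, the leucine-pathway dehydrogenase Ivd (-0.95, 0.027). Of 24 other peroxisomal enzymes and transporters, Nudt7 (0.82, 0.030) and Gnpat (0.81, 0.033) were higher and Abcd4 (-1.05, 0.014) was lower. Of 12 other PPAR-alpha targets tested, 1 was higher, the lipid droplet protein Plin2 (0.79, 0.024). Next by p with edgeR, Cyp4a32 had 1.71 (0.072) and Txnip 0.56 (0.14). Cyp4a14 had 2.64 (SE 1.15, adjusted p = 0.15 with edgeR). It averaged 10.5 ± 12.6 CPM in HFD-STZ vehicle and 66.6 ± 40.6 in dehydrozingerone libraries (SD, n = 3 each). Stretches shared with other genes were not measured for Cyp4a32 or Cyp4a14, so their levels are uncertain.

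Among 16 transcriptional regulators of the pathway, 1 was higher with treatment (6.25%, against 10.0% of all genes) and 2 were lower (12.5%, against 12.0% of all). The oestrogen-related receptor Esrrg averaged 13.6 ± 0.879 CPM in NCD vehicle libraries, 15.6 ± 1.90 in HFD-STZ vehicle libraries and 27.5 ± 6.68 in dehydrozingerone libraries, a rise of 0.83 against HFD-STZ vehicle (adjusted p = 0.021, edgeR; SD, n = 3 each). The receptor PPAR-delta, encoded by Ppard, averaged 5.67 ± 1.20, 6.77 ± 0.411 and 2.502 ± 0.373 CPM in the same order of groups and fell by 1.44 (adjusted p = 0.0044). The coactivator Ppargc1b averaged 29.3 ± 5.16, 26.0 ± 8.13 and 9.83 ± 1.61 CPM and fell by 1.41 (adjusted p = 0.0059). Against NCD vehicle, 10 of the 105 were called higher and 6 lower with edgeR (6.31% and 7.38% of all genes), with Esrrg at 1.01 (adjusted p = 0.017), Ppard at -1.17 (0.013) and Ppargc1b at -1.57 (0.0090).

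Markers of the tubule segments and of other tissues that use fatty acids were read in the same libraries. Markers of the late proximal tubule (S3) summed to 460 to 989 CPM in NCD vehicle libraries, 377 to 1262 in HFD-STZ vehicle libraries and 418 to 603 in dehydrozingerone libraries, and those of the thick limb to 559 to 1211, 704 to 1638 and 1054 to 2262. In the treatment comparison 10.0% of all genes were called higher and 12.0% lower. Of 10 early proximal tubule markers 2 were called higher with edgeR and 1 lower, all named after their values were seen. The higher ones were Slc6a19 (1.86, adjusted p = 0.0031) and Slc5a2 (0.98, 0.019), and the lower one was Slc4a4 (-1.02, 0.043). Of 10 late markers 1 was called higher and 1 lower, and of 6 thick limb markers 2 higher and 0 lower. Markers of the distal convoluted tubule summed to 821 to 996 CPM in NCD vehicle libraries, 1153 to 1226 in HFD-STZ vehicle libraries and 503 to 1002 in dehydrozingerone libraries, so the treated libraries were all below the HFD-STZ vehicle ones. Of its 5 markers 0 were called higher and 2 lower (Wnk1 and Trpm6; median over the 5 of -0.68), and of 9 collecting duct markers 0 were called higher and 1 lower (Aqp3). Podocyte markers summed to 53.0 to 72.9, 22.4 to 45.3 and 71.0 to 91.7 CPM, with 3 of 6 called higher. Macrophage markers summed to 32.0 to 46.8, 17.9 to 42.0 and 25.3 to 30.4 CPM, with 3 of 6 called higher and 1 lower. Their part in the differences of the fatty acid oxidation genes was not tested.

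Hepatocyte markers summed to 48.3 to 59.4, 82.6 to 184 and 70.5 to 132 CPM, with Cps1 at 0 in every NCD vehicle and HFD-STZ vehicle library. White adipocyte markers summed to 18.3 to 60.3, 12.4 to 19.6 and 12.9 to 37.2 CPM, with 1 of 9 tested called higher and Lep at 0 in every HFD-STZ vehicle library, and brown adipocyte markers to 2.62 to 9.20, 2.29 to 6.61 and 3.02 to 9.17 CPM. Adipoq, the defining adipocyte marker, stood at 0.0535, 0.166 and 1.84 CPM in NCD vehicle libraries, at 0.108, 0 and 0.0803 in HFD-STZ vehicle libraries and at 4.41, 0 and 2.65 in dehydrozingerone libraries. Skeletal muscle markers summed to at most 1.10 CPM in any library, with Ckm at 0 in all 9. The part of these tissues was likewise not tested.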

How the data were processed

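Messenger RNA of 9 kidney samples was captured and made into stranded libraries, per the labels' protocols. The authors deposited raw counts per gene, with FastQC, Trim Galore, STAR and the build GRCm39 (mm39) named in the submitters' processing notes; the counting tool and its strand setting are not recorded in these sources. Ensembl identifiers were matched to symbols for 94.1% of genes in the table.

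Counts were filtered with filterByExpr, scaled by TMM and tested with edgeR 4.0.16 (quasi-likelihood, robust, group as the only term, all 9 libraries) in R 4.3.3, with Benjamini-Hochberg adjustment over 17179 genes. Counts scaled to library size (CPM) use TMM, class means use log2 CPM with a prior count of 2, and lengths are from GENCODE M21. The procedure was tested on simulated data. Alternatives were DESeq2 1.42.0, limma-voom (limma 3.58.1), other scalings, no filter, 2-group fits, a replicate block, a term for Y-linked libraries and each library left out.

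The members, the companion and marker lists and the choices among tests were made with earlier results of these data known. Text names all members and, of each companion list, up to 4 genes with the lowest p in the treatment comparison and up to 2 in the model comparison. Same-numbered samples were not treated as paired, since the labels do not say what a number shares (correlations of deviations -0.41 to 0.22). Results of some companion genes are not reported here.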

Additional observations from a re-analysis of the deposited data

How the results depend on the processing

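In the treatment comparison 4 of 12 calls (Cpt1a, Acaa2, Etfdh and Ehhadh) were kept in all 18 alternative fits, and 5 (these and Etfb) in every fit that left a library out. Against NCD vehicle 0 of 8 calls were kept in all 18. Scaling by library size only shifted the median of all genes to -0.74 in the model comparison and 0.81 in the treatment comparison, and 93.7% of all called genes were then higher with treatment, against 45.5% with TMM. Under it the class medians (mitochondrial, then peroxisomal) were -0.60 and -0.70 in the model comparison and 1.40 and 1.31 in the treatment comparison, and the treatment comparison called 8 members higher and 0 lower, with Acot2 reversed at 0.074. Against NCD vehicle that scaling called 0 higher and 0 lower of 36, and 36 of all genes.

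In the model comparison edgeR without the filter called 1 member higher and 1 lower, and DESeq2 called 1 higher. Over all genes those fits called 425 and 126, against 9 in the main fit. Against NCD vehicle, 13 members were higher without the filter, 13 with DESeq2, 13 in the fit of only those 2 groups and 12 with the Y-linked term. All-gene higher calls in those fits, in order, were 1732, 1626, 1873 and 1739, against 1084 in the main fit. The fit without the filter tested 32021 genes. With each library left out, members called ranged from 4 to 13 higher and 1 to 2 lower in the treatment comparison and from 0 to 12 higher and 0 to 1 lower against NCD vehicle. Calls over all genes in those fits ranged from 1149 to 4086 and from 112 to 3706. In those fits an arm can hold 2 libraries. The mitochondrial median with treatment ranged from 0.42 to 0.83, and the peroxisomal minus mitochondrial median ranged from -0.28 to 0.15 with treatment and from -0.36 to 0.043 in the model comparison. The causes of these changes were not tested.

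With the replicate number as a block, 5 members were called higher and 2 lower with treatment, where edgeR called 2159 of all genes. Against NCD vehicle, 3 were called higher and 0 lower, where edgeR called 772 of all genes. The labels do not say what samples with the same number share. Best correlation was with the own number for 3 of 6 libraries in the treatment comparison and 0 of 6 in each other comparison. That cannot decide whether the numbers pair the samples, since libraries with Y-linked transcripts were spread unevenly over the numbers. The lowest count of a member in any library was 9, for Acads.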
